A study of Mus musculus with 9 samples.

Results

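Creatine kinases and the genes around them form the fast energy reserve of muscle, and 9 of them were followed here: the creatine kinases Ckm, Ckb, Ckmt1 and Ckmt2, the creatine synthesis enzymes Gatm and Gamt, the creatine carrier Slc6a8, the adenylate kinase Ak1 and myoglobin (Mb). They were chosen by symbol, and all 14 probe sets annotated to them among 45101 on the array were read. Expression was measured on 1-colour Affymetrix arrays in 3 groups of mouse cells, with 3 samples a group and 1 array a sample, so that n = 3 for every group mean and difference below. CiCM are cardiomyocyte-like cells induced from mouse embryonic fibroblasts with 6 small molecules, namely 10 µM CHIR99021, 10 µM RepSox, 50 µM Forskolin, 0.5 mM VPA, 5 µM Parnate and 1 µM TTNPB, and only clusters that beat were picked, on day 24. CM are cardiomyocytes taken straight from mouse hearts, with no age or strain given. MEF are fibroblasts of C57BL/6 embryos at embryonic day 13.5; no genetic change is recorded for any group. The replicates of a group are called biological, and nothing says whether they came from separate animals or cultures, so the p-values measure the spread between these samples.

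Creatine kinase moves a phosphate group between ATP and creatine, so that phosphocreatine can refill ATP where it is spent. The cytosolic forms are Ckm of muscle and Ckb of brain and many other tissues, and muscle precursors exchange the brain form for the muscle form as they mature. The mitochondrial forms, Ckmt2 of heart and skeletal muscle and Ckmt1 of other tissues, sit between the mitochondrial membranes and charge creatine with phosphate from newly made ATP. Gatm makes guanidinoacetate from arginine and glycine, and Gamt methylates it to creatine, steps known mainly from kidney and liver. Heart and skeletal muscle mostly take creatine up from blood through Slc6a8. Ak1 rebuilds ATP from ADP in the cytosol, and myoglobin stores oxygen and carries it through muscle cells.

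The stretches before the starts of Ckm, Ckmt2 and Mb are shown because these genes had the largest differences from MEF among the 9. That of Ckb is shown because Ckb is the cytosolic counterpart of Ckm and differed by less than 1 log2 unit in every comparison. Each holds the 250 bases upstream of a start in RefSeq on GRCm38.p6, written 5′ to 3′ on the gene's strand. Capitals mark the E-box, CANNTG, and matches to the MEF2 consensus. For Mb the table lists 3 starts, and of the 2 that lie close together the one farther upstream is shown.
Ckm, chr7:19410844-19411093, + strand: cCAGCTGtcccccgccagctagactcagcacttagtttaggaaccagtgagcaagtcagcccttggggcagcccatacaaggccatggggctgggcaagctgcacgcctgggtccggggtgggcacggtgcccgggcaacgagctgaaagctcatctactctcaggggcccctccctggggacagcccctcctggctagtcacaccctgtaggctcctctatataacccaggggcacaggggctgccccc
Ckmt2, chr13:91876886-91877135, - strand: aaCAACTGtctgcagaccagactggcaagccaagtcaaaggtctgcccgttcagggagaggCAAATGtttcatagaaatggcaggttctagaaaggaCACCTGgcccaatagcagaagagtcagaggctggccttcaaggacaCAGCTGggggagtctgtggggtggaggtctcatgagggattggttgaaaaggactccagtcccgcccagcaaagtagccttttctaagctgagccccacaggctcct
Mb, chr15:77022788-77023037, - strand: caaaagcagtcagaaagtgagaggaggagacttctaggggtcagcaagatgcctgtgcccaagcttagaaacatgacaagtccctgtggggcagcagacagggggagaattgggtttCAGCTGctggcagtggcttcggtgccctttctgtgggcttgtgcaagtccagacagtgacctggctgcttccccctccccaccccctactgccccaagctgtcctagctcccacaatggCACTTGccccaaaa
Ckb, chr12:111672339-111672588, - strand: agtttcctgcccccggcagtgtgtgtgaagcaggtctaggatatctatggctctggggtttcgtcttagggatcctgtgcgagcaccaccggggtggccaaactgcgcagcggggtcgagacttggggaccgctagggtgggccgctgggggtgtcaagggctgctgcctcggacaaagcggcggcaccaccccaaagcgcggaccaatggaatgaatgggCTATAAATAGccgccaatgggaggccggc
Both strands were searched for the E-box, the motif TATAAA, the MEF2 consensus and the CArG box. Ckm had 1 E-box, CAGCTG, at the far end of its window, Ckmt2 had 4 and this Mb window had 2, while the Ckb window had none. Among windows not shown, Gatm had 1, the Ak1 windows 1 to 3, and the other Mb windows 3 and 2. Those of Gamt and Ckmt1 had none. Ckb held 1 match to the MEF2 consensus, CTATAAATAG, which begins at base -29 relative to the start and overlaps a TATAAA. E-boxes are common: 66.2% of 32851 such windows held at least 1, against 2.92% for the MEF2 consensus, 1.47% for the CArG box and 12.4% for TATAAA. No window of Ckm, Ckmt2 or Mb held the MEF2 consensus or the CArG box. Windows were listed for 8 of the 9 genes, and the matches are a description of these letters.

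Signals are given on the log2 scale, on which 1 unit is a 2-fold change. Every array had been scaled to the same mean linear signal. The median over all probe sets and arrays, 6.58, serves as the line under which signals are noisy. A gene was tested if its highest group mean reached that line, and it was called at a limma adjusted p under 0.05 with a difference of at least 1. Of the 9 genes 8 were tested, each by its brightest probe set, and Ckmt1 stayed under the line. Replicates correlated across genes at 0.965 to 0.969 in CiCM, 0.930 to 0.953 in CM and 0.971 to 0.975 in MEF. The scaling between arrays bears on the smaller differences. Of the calls over all genes, 48.6% were higher in CiCM minus MEF, 50.4% in CM minus MEF and 46.5% in CiCM minus CM. With arrays levelled on their hybridisation controls these shares were 35.4%, 22.1% and 74.5%, and with arrays centred on their medians 45.3%, 35.1% and 62.4%. The median difference of all genes was -0.033, -0.031 and -0.027 in the same order, -0.26, -0.84 and 0.55 after levelling and -0.091, -0.40 and 0.28 after centring.

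CiCM carried muscle and fibroblast transcripts side by side. All 13 listed skeletal muscle markers lay above the line in CiCM, with a summed log2 signal of 17.63 to 17.81, against 4 in CM (10.81 to 11.30) and 1 in MEF (10.19 to 10.30). Of 13 cardiomyocyte markers 7 lay above it in CiCM, 13 in CM and 2 in MEF. Their summed log2 signal was 15.4 to 15.5 in CiCM, 18.4 to 18.5 in CM and 9.2 to 9.6 in MEF. Of the 7, Tnnt2 averaged 14.5 in CiCM and 15.6 in CM, Myl2 13.35 and 15.34, and Actn2 13.22 and 14.49. Myl3 (8.61 in CiCM and 15.55 in CM) and Myh6 (7.13 and 15.72) lay much farther below CM. Nppa (6.64) and Nppb (6.81) only just passed the line in CiCM, and Nppb was higher in MEF (7.31). Under the line in CiCM, the cardiac troponin I gene Tnni3 averaged 5.77 there and 15.15 in CM. The calcium release channel gene Ryr2, also under it in CiCM, averaged 5.19 and 14.14. Fibroblast markers summed to 16.84 to 16.89 in CiCM, 15.49 to 15.73 in CM and 16.95 to 16.97 in MEF. CM also carried all 7 endothelial markers above the line, against 1 in CiCM and 1 in MEF, and 7 of 8 macrophage markers, against 4 in CiCM and 8 in MEF. Adipocyte markers summed to 8.72 to 9.08 in CiCM, 15.27 to 15.90 in CM and 10.99 to 11.11 in MEF, with 2, 4 and 1 of 6 above the line; Fabp4 averaged 7.63, 15.15 and 11.00, and Cidea 7.62, 11.21 and 2.33 in that order. These levels move with the comparisons below, and their part in the results was not tested. In such bulk samples a smaller number of cells of a type and less RNA per cell cannot be told apart.

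**Figure D1:**
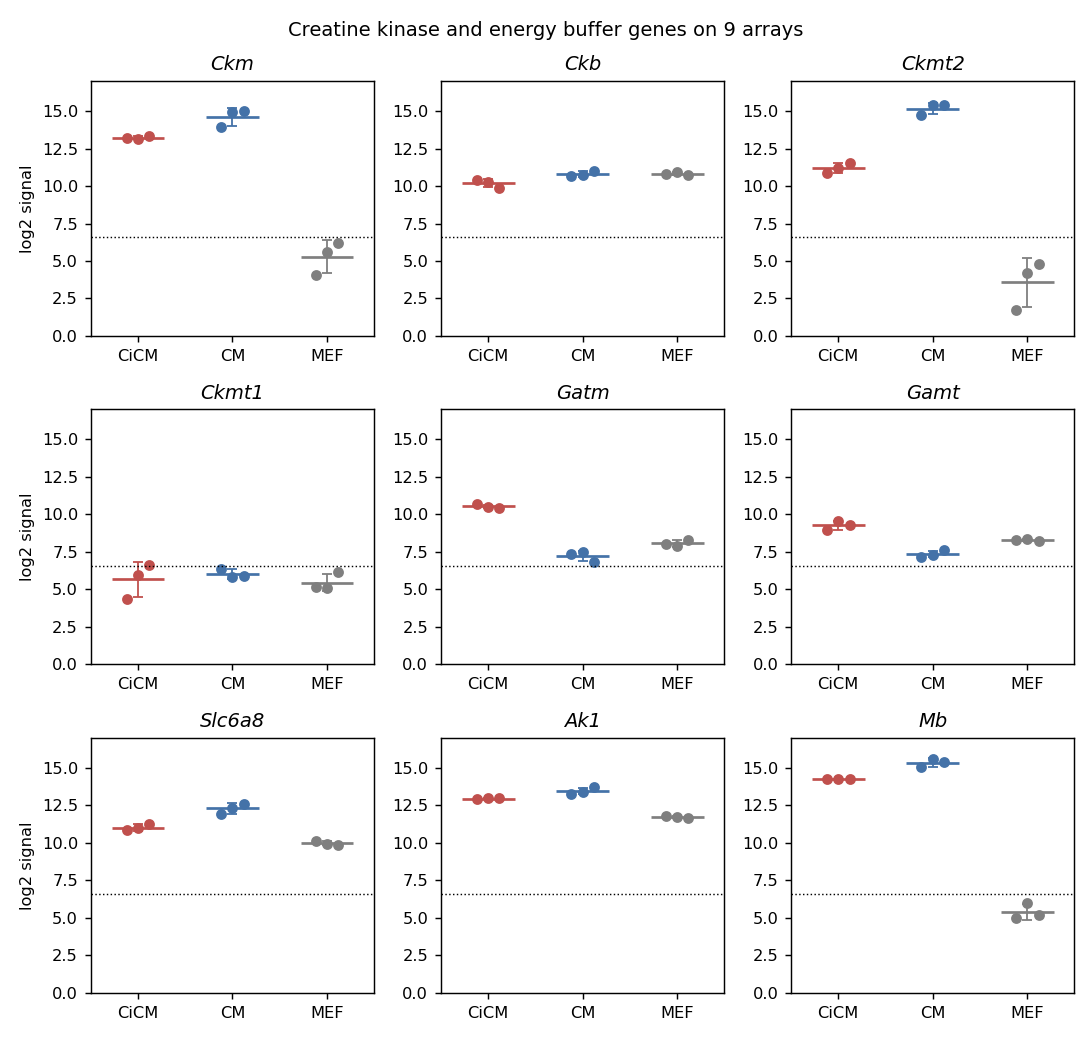
Log2 signal of the 9 genes on each array (points), with the group mean (bar) and SD over 3 arrays (error bar), for CiCM, CM and MEF; the dotted line is the median of all values, 6.58. Ckm, Ckmt2 and Mb lie above the line in CiCM and CM and below it in MEF, Ckb lies between 9.89 and 11.03 on every array, and Gatm and Gamt are highest in CiCM.

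The muscle creatine kinase gene Ckm (Entrez Gene 12715) was far higher in CiCM and CM than in MEF. Its log2 signal was 13.18, 13.13 and 13.36 in CiCM replicates 1 to 3, 13.93, 14.97 and 14.99 in CM, and 4.04, 5.63 and 6.20 in MEF. The groups did not overlap, all MEF arrays lay under the line, and CM replicate 1 was about 1 unit under the other CM arrays. The difference CiCM minus MEF was 7.93 ± 0.46 (SE, limma adjusted p = 3.18e-07) and CM minus MEF 9.34 ± 0.46 (limma adjusted p = 3.08e-08). Because the MEF signals are noisy there, the same differences with 32 added to each linear signal, 7.01 and 8.41, are the more cautious sizes. CiCM stood below CM by a difference of -1.40 ± 0.46 (limma adjusted p = 0.0218). That call was lost without CiCM replicate 1 or 2, or CM replicate 2 or 3 (limma adjusted p = 0.0576, 0.0599, 0.0744 and 0.0730). It was also lost with quantile normalization (-1.04, limma adjusted p = 0.0561) or levelling on the controls (-0.83, limma adjusted p = 0.0852). Without CM replicate 1 the difference was -1.75. The call held with 32 added (-1.40, limma adjusted p = 0.00146) and in a fit of only the 2 groups compared (-1.40, limma adjusted p = 0.00168). The main SE pools the spread of all 9 arrays, and the SD of Ckm was 1.12 in MEF, 0.60 in CM and 0.12 in CiCM.

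Ckmt2 (Entrez Gene 76722), the sarcomeric mitochondrial creatine kinase, also rose in CiCM over MEF but stayed well short of its level in heart cells. Its log2 signal was 10.87, 11.21 and 11.53 in CiCM, 14.72, 15.40 and 15.38 in CM, and 1.73, 4.21 and 4.80 in MEF. No array of one group reached another group's range. For CiCM minus MEF the difference was 7.62 ± 0.62 (SE, limma adjusted p = 3.39e-06) and CM minus MEF 11.59 ± 0.62 (limma adjusted p = 5.13e-08), or 5.66 and 9.60 with 32 added. CiCM minus CM was -3.96 ± 0.62 (limma adjusted p = 0.000242), so that CM carried 15.6-fold more. Both groups lay above the line there, and the difference was between -4.18 and -3.79 in the fits without 1 array and -3.39 with arrays levelled on their controls.

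Within an array, Ckm minus Ckmt2 shows how far both muscle forms moved apart; its size has no meaning of its own, and only its change between groups is read. It was 2.31, 1.92 and 1.83 in CiCM, -0.79, -0.43 and -0.39 in CM, and 2.31, 1.42 and 1.40 in MEF, where both signals lay under the line. CiCM and CM did not overlap, and the change was 2.56 for CiCM minus CM (exact permutation test, 2-sided, p = 0.1, the smallest p that 3 against 3 arrays allow; 0.171 adjusted over 12 such tests). Such a within-array difference does not depend on how arrays are scaled by a constant. The value was higher on all 3 CiCM arrays than on any CM array, and the change was 2.41 to 2.65 without 1 array. Ckm minus Mb changed by -0.30 between CiCM and CM, with overlapping arrays (exact permutation test, 2-sided, p = 0.4; adjusted p = 0.4).

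Ckb (Entrez Gene 12709), the brain-type cytosolic form, was strongly detected in all 3 groups and was called in no comparison. Its log2 signal was 10.42, 10.26 and 9.89 in CiCM, 10.68, 10.71 and 11.03 in CM, and 10.83, 10.91 and 10.72 in MEF. The CiCM arrays lay under all others, and CM and MEF overlapped. CiCM minus MEF was -0.63 ± 0.14 (SE, limma adjusted p = 0.00412) and CiCM minus CM -0.62 ± 0.14 (limma adjusted p = 0.00348), both under the minimum difference; the second was -0.042 with arrays levelled on their controls. CM minus MEF was -0.014 ± 0.14 (limma adjusted p = 0.937), and its sign turned with quantile normalization (0.087). Ckm minus Ckb within an array was 2.77, 2.87 and 3.47 in CiCM, 3.25, 4.26 and 3.96 in CM, and -6.78, -5.28 and -4.52 in MEF. It changed by 8.56 for CiCM minus MEF and by 9.35 for CM minus MEF, without overlap (exact permutation tests, 2-sided, p = 0.1 each; 0.171 adjusted). Between CiCM and CM it changed by -0.79, with overlap (exact permutation test, 2-sided, p = 0.2; 0.267 adjusted). The rise of Ckm thus came with no called change in Ckb.

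Ckmt1 (Entrez Gene 12716), the ubiquitous mitochondrial form, was not measured well on these arrays. Its brighter probe set read 4.37, 5.98 and 6.66 in CiCM, 6.39, 5.83 and 5.89 in CM, and 5.15, 5.11 and 6.13 in MEF. All group means lay under the line, and the groups overlapped. The other probe set was dimmer still on average, with 3.20, 6.22 and 6.73 in CiCM, 6.24, 5.95 and 1.36 in CM, and 4.80, 4.89 and 2.51 in MEF. In a fit without the filter, CiCM minus MEF was 0.21, CM minus MEF 0.57 and CiCM minus CM -0.36, each with an SE of 0.62 (limma adjusted p = 0.848, 0.494 and 0.685). A change about as large as that SE, such as the 0.57, was not told apart from none. Larger changes could be missed here as well. Ckmt2 minus Ckmt1 within an array changed by 7.42 for CiCM minus MEF, 11.02 for CM minus MEF and -3.60 for CiCM minus CM (exact permutation tests, 2-sided, p = 0.1 each; 0.171 adjusted), which carries the noise of Ckmt1.

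**Figure D2:**
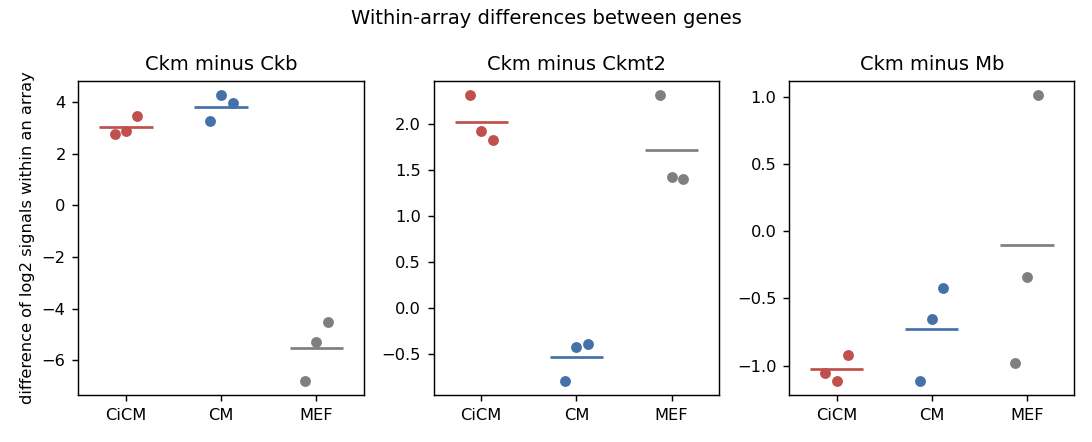
Difference between the log2 signals of 2 genes on the same array (points) with the group mean (bar) for CiCM, CM and MEF; vertical scales differ between panels. Ckm minus Ckb lies above 0 on all CiCM and CM arrays and below 0 on all MEF arrays, and Ckm minus Ckmt2 lies above 1.8 on all CiCM arrays and below 0 on all CM arrays.

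The creatine synthesis genes did not follow the muscle kinases Ckm and Ckmt2: they were highest in CiCM and lowest in CM. Gatm (Entrez Gene 67092), the first enzyme of the pathway, had a log2 signal of 10.68, 10.52 and 10.46 in CiCM, 7.35, 7.52 and 6.84 in CM, and 8.05, 7.87 and 8.29 in MEF. Every CiCM array lay above all MEF arrays, and these above all CM arrays. Gatm rose in CiCM over MEF by 2.48 ± 0.19 (SE, limma adjusted p = 2.36e-06), or 5.59-fold, and CiCM minus CM was 3.32 ± 0.19 (limma adjusted p = 1.79e-07), or 9.99-fold. CM minus MEF was -0.84 ± 0.19 (limma adjusted p = 0.00261), short of the minimum difference.

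Gamt (Entrez Gene 14431), which completes creatine by methylation, showed the same order with smaller steps. Its log2 signal was 8.98, 9.55 and 9.30 in CiCM, 7.17, 7.30 and 7.60 in CM, and 8.30, 8.36 and 8.23 in MEF. The 3 groups did not overlap. CiCM minus CM was 1.92 ± 0.19 (SE, limma adjusted p = 7.12e-06) and was called. Against MEF the difference of CiCM was 0.98 ± 0.19 (limma adjusted p = 0.00128) and lay just under the minimum difference, which it passed without CiCM replicate 1 (1.13) or MEF replicate 2 (1.01). CM minus MEF was -0.94 ± 0.19 (limma adjusted p = 0.00101). Gamt and Gatm were called lower in CM than in MEF with quantile normalization (-1.13 and -1.06), with centring (-1.30 and -1.20) and with levelling on the controls (-1.74 and -1.64), and Gamt also without CM replicate 3 (-1.06).

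Slc6a8 (Entrez Gene 102857), the creatine carrier, was higher in CiCM and CM than in MEF by its brighter probe set. That probe set read 10.83, 10.97 and 11.28 in CiCM, 11.94, 12.36 and 12.61 in CM, and 10.15, 9.95 and 9.87 in MEF. The groups stood in the order CM, CiCM and MEF without overlap. CiCM minus MEF was 1.04 ± 0.17 (SE, limma adjusted p = 0.000541), CM minus MEF 2.31 ± 0.17 (limma adjusted p = 5.73e-07) and CiCM minus CM -1.28 ± 0.17 (limma adjusted p = 8.04e-05). The CiCM call over MEF is marginal, at 0.95 with 4 times 32 added to the linear signals, 0.91 without CiCM replicate 3, 0.97 without MEF replicate 3, 0.98 with centring and 0.81 with levelling on the controls. CiCM minus CM was -0.97 with centring and -0.70 with levelling, which also lost the call. With both probe sets averaged, CiCM minus MEF was 0.86, CM minus MEF 1.08 and CiCM minus CM -0.22 (limma adjusted p = 0.000327, 2.91e-05 and 0.158), and only CM minus MEF was called. The CM comparisons rest on that probe set: the other, annotated to the same transcript sequence, read 10.84, 10.73 and 10.94 in CiCM, 9.92, 9.95 and 10.13 in CM, and 10.19, 10.18 and 10.10 in MEF. By it CiCM was the highest group, with differences of 0.68 ± 0.10 for CiCM minus MEF, -0.16 ± 0.10 for CM minus MEF and 0.84 ± 0.10 for CiCM minus CM (SE, limma over all probe sets, adjusted p = 0.000252, 0.187 and 3.42e-05). Both probe sets thus placed CiCM above MEF, and they opposed each other in the sign of CiCM minus CM. Of the RNA integrity controls, the Actb 3′ minus 5′ log2 difference was 0.28 to 0.48 in CiCM, 0.86 to 1.24 in CM and 0.22 to 0.29 in MEF. That of Gapdh moved less, at -0.38 to -0.36 in CiCM, -0.30 to -0.20 in CM and -0.47 to -0.42 in MEF. The same CM arrays enter every CM comparison in this text. The part of these control differences in the disagreement, or in the CM differences of other genes, was not tested.

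**Figure D3:**
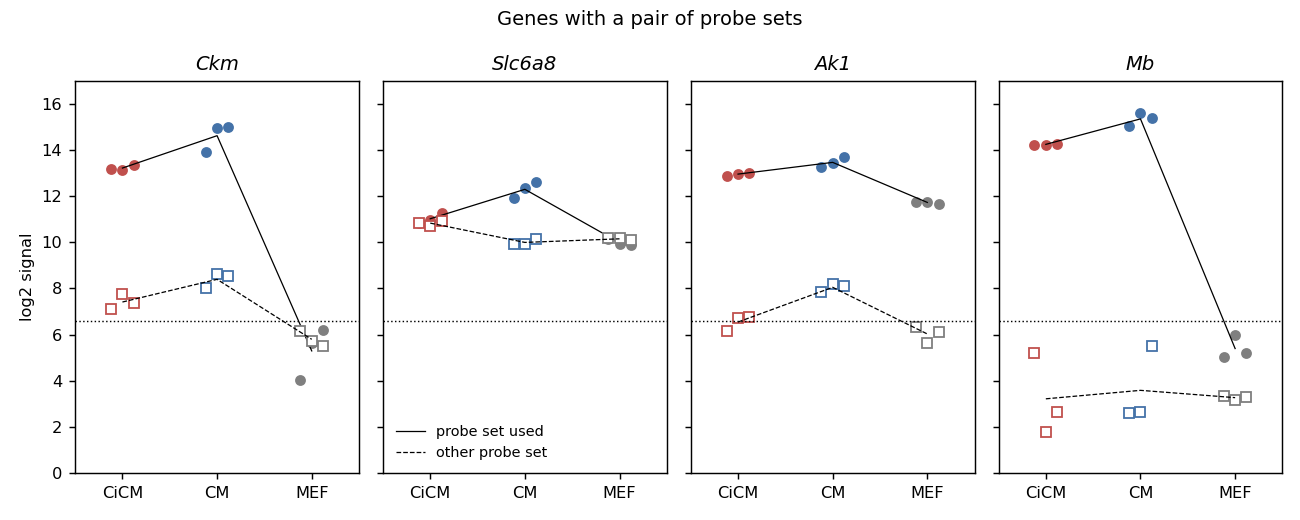
Log2 signal on each array for 4 of the 5 genes with a pair of probe sets, Ckmt1 left out (filled circles, the probe set used; open squares, the other), with lines through the group means and the median of all values, 6.58, dotted. The Slc6a8 probe sets part in CM, at a mean of 12.30 and 10.00, and the second Mb probe set lies under the line in every group.

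Ak1 (Entrez Gene 11636), the cytosolic adenylate kinase, was already abundant in MEF and rose modestly. Its log2 signal was 12.90, 12.97 and 13.02 in CiCM, 13.27, 13.43 and 13.71 in CM, and 11.77, 11.75 and 11.68 in MEF. The order CM, CiCM and MEF held on every array. Ak1 rose in CiCM over MEF by 1.23 ± 0.11 (SE, limma adjusted p = 5.30e-06) and in CM over MEF by 1.74 ± 0.11 (limma adjusted p = 1.31e-07). CiCM minus CM was -0.51 ± 0.11 (limma adjusted p = 0.00171), under the minimum difference, and its sign turned with levelling on the controls (0.067). A dimmer probe set gave 0.52 ± 0.29, 2.02 ± 0.29 and -1.50 ± 0.29 for the 3 comparisons (SE, limma over all probe sets, adjusted p = 0.165, 9.43e-05 and 0.00104). By that probe set CiCM stood nearer to MEF, with 6.16, 6.70 and 6.77 in CiCM, 7.85, 8.19 and 8.12 in CM, and 6.31, 5.64 and 6.13 in MEF. The CiCM and MEF means of that probe set, 6.55 and 6.03, lay under the line, where signals are noisy. Both probe sets put CM above MEF; with both averaged, the CiCM call over MEF was lost (0.87) and CiCM minus CM was called lower (-1.01, limma adjusted p = 0.000155). Levelling on the controls also lost that call and the CM call over MEF, the second at 0.93.

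Mb (Entrez Gene 17189), myoglobin, had the largest difference between CiCM and MEF of the 8 genes tested. Its log2 signal was 14.23, 14.24 and 14.29 in CiCM, 15.04, 15.62 and 15.41 in CM, and 5.02, 5.97 and 5.19 in MEF. The CiCM arrays had an SD of 0.029, lay below all CM arrays, and all MEF arrays lay under the line. Myoglobin was higher in CiCM than in MEF by 8.86 ± 0.22 (SE, limma adjusted p = 8.76e-10) and in CM than in MEF by 9.96 ± 0.22 (limma adjusted p = 1.66e-10), or 8.03 and 9.13 with 32 added. CiCM minus CM was -1.11 ± 0.22 (limma adjusted p = 0.00129), a call lost without CM replicate 2 (-0.97), with quantile normalization (-0.65), with both probe sets averaged (-0.74), with centring (-0.80) and with levelling on the controls (-0.53). A second Mb probe set stayed under the line on every array: its highest values were 5.20 in CiCM, 5.52 in CM and 3.32 in MEF. It gives no usable level, and averaging it in gave 4.40 for CiCM minus MEF and 5.14 for CM minus MEF, both still called.

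Ckm also had a dimmer probe set, which kept the order of the groups with smaller steps. It read 7.11, 7.75 and 7.39 in CiCM, 8.01, 8.64 and 8.54 in CM, and 6.17, 5.71 and 5.51 in MEF. CiCM minus MEF was 1.62 ± 0.28, CM minus MEF 2.60 ± 0.28 and CiCM minus CM -0.98 ± 0.28 (SE, limma over all probe sets, adjusted p = 0.000834, 1.13e-05 and 0.0115). The probe sets of Ckm therefore shared the direction in all 3 comparisons and differed in size; averaged, they gave 4.78, 5.97 and -1.19, all called.

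Counted together, CiCM had 6 of the 8 tested genes called higher than MEF (Ckm, Ckmt2, Slc6a8, Gatm, Ak1 and Mb) and 0 lower by limma, with 1 lower at an unadjusted p under 0.05. Of all 12559 tested genes 11.6% were called higher in that comparison, 12.2% lower and 23.8% either way. CM had 5 called higher than MEF (those 6 without Gatm) and 0 lower by limma, with 2 lower at an unadjusted p under 0.05; over all genes the shares were 22.1%, 21.8% and 43.9%. Set against CM, CiCM had 2 called higher, Gatm and Gamt, and 4 called lower, Ckm, Ckmt2, Slc6a8 and Mb, where the shares of all genes were 16.5%, 19.0% and 35.5%. The median difference of the 8 genes was 1.86, 2.03 and -0.86 in the 3 comparisons, beside -0.033, -0.031 and -0.027 for all genes. Each pair of the 3 comparisons shares the arrays of 1 group, so the counts are not independent. Arrays of both groups did not overlap for 8, 7 and 8 of the 8 genes, where 68.5%, 75.2% and 67.9% of all genes had no overlap. Under quantile normalization or centring 2 genes were called lower in CiCM than in CM, under levelling on the controls 1, and 2 without CM replicate 2.

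**Figure D4:**
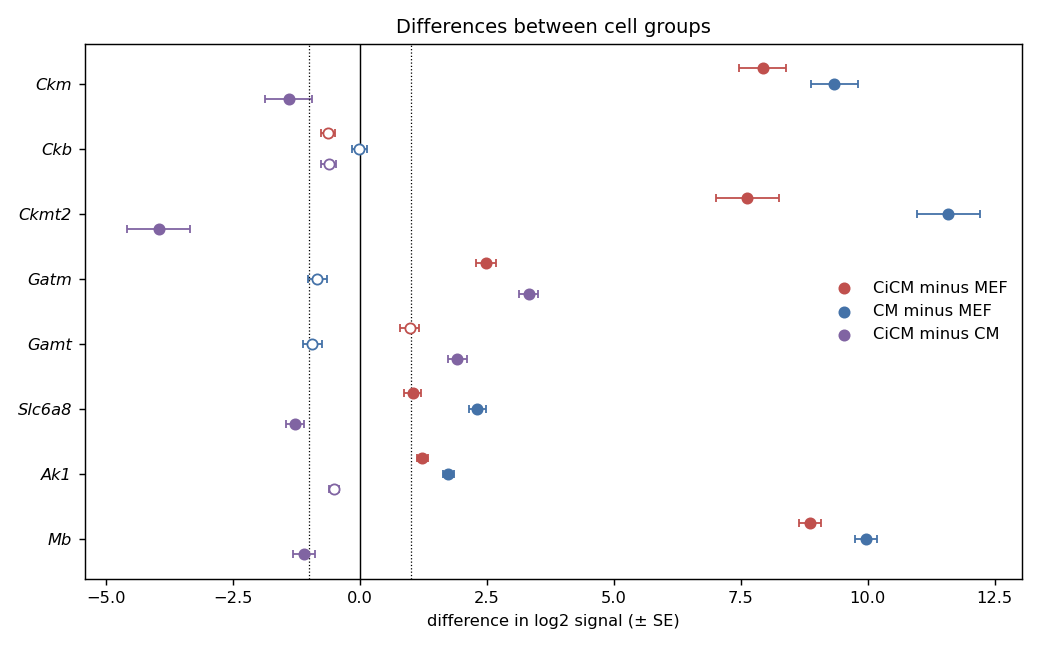
Difference in log2 signal (± SE from the limma fit) of the 8 tested genes for CiCM minus MEF, CM minus MEF and CiCM minus CM; filled points were called, open points were not, and dotted lines mark a difference of 1. Gatm and Gamt lie right of 0 for CiCM minus CM (3.32 and 1.92), while Ckm, Ckmt2, Slc6a8 and Mb lie left of it.

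The genes whose pattern over the 9 arrays was most like that of Ckm, Ckb, Ckmt2 or Mb were found by the root mean square difference between centred log2 values with 32 added. For Ckm these were Tnnt2 (0.36 log2 units), the cardiac troponin T, Casq2 (0.43), a calcium store protein, Actc1 (0.44), the cardiac actin, and Lmod2 (0.46), a thin filament protein. For Ckmt2 the nearest lay farther off: Tcap (0.73), a Z-disc protein, the muscle cytochrome oxidase genes Cox8b (0.80) and Cox7a1 (0.88), and Actc1 (0.91). For Mb they were Myoz2 (0.27), Smpx (0.30), Ttn (0.32) and Myom2 (0.36), all of striated muscle. Ckb, which moved little, was nearest to Irf9 (0.0705), Patz1 (0.11), Cntrob (0.11) and Zfp28 (0.12), genes with similarly small differences between groups.

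The list of muscle energy genes held muscle forms of enzymes, a fatty acid binding protein, and coactivators and nuclear receptors that drive mitochondrial genes. All 15 tested rose in CiCM over MEF (median 4.14; 11.6% of all genes) and in CM over MEF (median 5.52; 22.1%), and 0 fell in either by limma, also at an unadjusted p under 0.05. Cox8b (9.61, or 7.19 with 32 added) and Pgam2, the muscle phosphoglycerate mutase (9.04, or 7.48), led in CiCM minus MEF, and Ldhb, a lactate dehydrogenase chain (1.55), and Esrra, a nuclear receptor of mitochondrial genes (1.26), were lowest. With 32 added, Esrrg was the lowest of them at 0.96, under the minimum difference, against 1.68 without. In CM minus MEF Cox8b (11.87) and Pgam2 (9.79) led, and Esrra (2.71) and Esrrb (2.30) were lowest. Against CM, 10 of the 15 were lower in CiCM (median -1.49; 19.0% of all genes) and 0 higher by limma, also at an unadjusted p under 0.05, where 14 were lower; 6 were called lower with levelling on the controls. Cox7a1 (-4.20 ± 0.20) and the nuclear receptor Esrrg (-4.05 ± 0.37) were lowest, and Pfkm, the muscle phosphofructokinase (-1.12), and Esrra (-1.45) were the smallest called differences. The coactivator Ppargc1a, a driver of mitochondrial gene expression, differed by -3.53 ± 0.26 (SE; limma adjusted p = 4.33e-08 for Cox7a1, 4.57e-06 for Esrrg and 1.07e-06 for Ppargc1a).

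Genes of mitochondrial ATP export act next to the site of Ckmt2. Of 8 tested, 1 was higher in CiCM than in MEF (median 0.48; 11.6% of all genes) and 0 lower by limma, or 5 and 0 at an unadjusted p under 0.05; the 1 was Chchd3 (1.21 ± 0.13, SE, limma adjusted p = 2.08e-05), a cristae protein. In CM 6 were higher than in MEF (median 1.38; 22.1% of all genes) and 0 lower by limma, or 8 and 0 at an unadjusted p under 0.05, led by Chchd3 (2.77) and Immt (2.08), which shape cristae, with Vdac3 (1.06), an outer membrane pore, and Slc25a3 (1.28), the phosphate carrier, lowest. Against CM 4 were lower in CiCM (median -0.99; 19.0% of all genes) and 0 higher by limma, or 8 and 0 at an unadjusted p under 0.05. They were Chchd3 (-1.56), Immt (-1.43), the heart and muscle ATP carrier Slc25a4 (-1.15) and the pore Vdac1 (-1.10). Slc25a4 differed by 0.69 ± 0.13 for CiCM minus MEF (limma adjusted p = 0.00106), under the minimum difference. With levelling on the controls 0 were called in CiCM minus MEF, 3 were higher in CM minus MEF and 0 were called in CiCM minus CM, with all 3 medians keeping their sign.

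Other enzymes of adenine nucleotides split. Of 10 tested, 3 rose in CiCM over MEF and 2 fell (median -0.52), where 11.6% of all genes rose and 12.2% fell. Ampd1, the AMP deaminase of skeletal muscle, was higher in CiCM than in MEF by 7.12 ± 1.01 (SE, limma adjusted p = 0.000188; 5.36 with 32 added) and higher than in CM by 8.24 ± 1.01 (limma adjusted p = 3.96e-05; 5.41 with 32 added). Ampd3, another AMP deaminase, was higher in CiCM than in MEF by 2.67, while Ak5 (-2.35) and Ak4 (-1.19), further adenylate kinases, were lower. In CM 2 were higher than in MEF, Ampd3 (1.82) and adenosine kinase, Adk (1.51), and 3 were lower (median -0.26), among them Ampd2 (-3.64) and Ak5 (-3.61), where 22.1% and 21.8% of all genes were called. Against CM, 4 were higher in CiCM, led by Ampd1 and Ampd2 (2.91), and 2 were lower, Adk (-1.69) and Nt5e (-1.40), an enzyme that makes adenosine outside the cell (median 0.47), where 16.5% and 19.0% of all genes were called. One of the 4, Ak5, was 1.25 higher, or 0.84 with 32 added, under the minimum difference. The medians kept their sign under each scaling.

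The AMP-activated kinase, which senses falling ATP, split by subunit. Of 7 subunit genes 2 rose in CiCM over MEF (median 0.56; 11.6% of all genes) and 0 fell by limma, or 5 and 0 at an unadjusted p under 0.05. They were Prkag3, the gamma subunit of skeletal muscle (5.97 ± 0.23, SE), and Prkaa2, the catalytic subunit of muscle (4.51 ± 0.16; limma adjusted p = 1.69e-08 and 7.27e-09; 4.94 and 3.73 with 32 added). In CM 3 were higher than in MEF (median 0.86; 22.1% of all genes), Prkaa2 (6.21), Prkag3 (2.02) and Prkag1 (1.41), and 0 lower by limma, with 1 lower at an unadjusted p under 0.05. Against CM, Prkag3 (3.95) and Prkaa1 (1.16) were higher in CiCM and Prkaa2 (-1.71) was lower, where 16.5% and 19.0% of all genes were called (median -0.093, or 0.48 with levelling on the controls and 0.22 with centring). Under each of the 3 other scalings 1 subunit was called lower in CM than in MEF. Of 5 ion pump genes, whose products spend ATP, 3 rose in CiCM over MEF (median 3.94; 11.6% of all genes) and 0 fell by limma, also at an unadjusted p under 0.05. They were Atp2a1, the calcium pump of fast skeletal muscle (6.53), the sodium pump chain Atp1b1 (4.32) and Atp2a2, the calcium pump of heart and slow muscle (3.94). In CM 4 of 5 were higher than in MEF (median 3.78; 22.1% of all genes), led by Atp2a2 (4.78) and Atp1b1 (4.24), with Atp1b2 (3.78) and Atp2a3 (2.05) lowest; 0 were lower by limma, also at an unadjusted p under 0.05. Against CM, Atp2a1 was higher in CiCM (5.65 ± 0.28, SE, limma adjusted p = 6.00e-08) and Atp2a3 (-2.53) and Atp1b2 (-2.74) were lower (median -0.84; 16.5% and 19.0% of all genes).

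**Figure D5:**
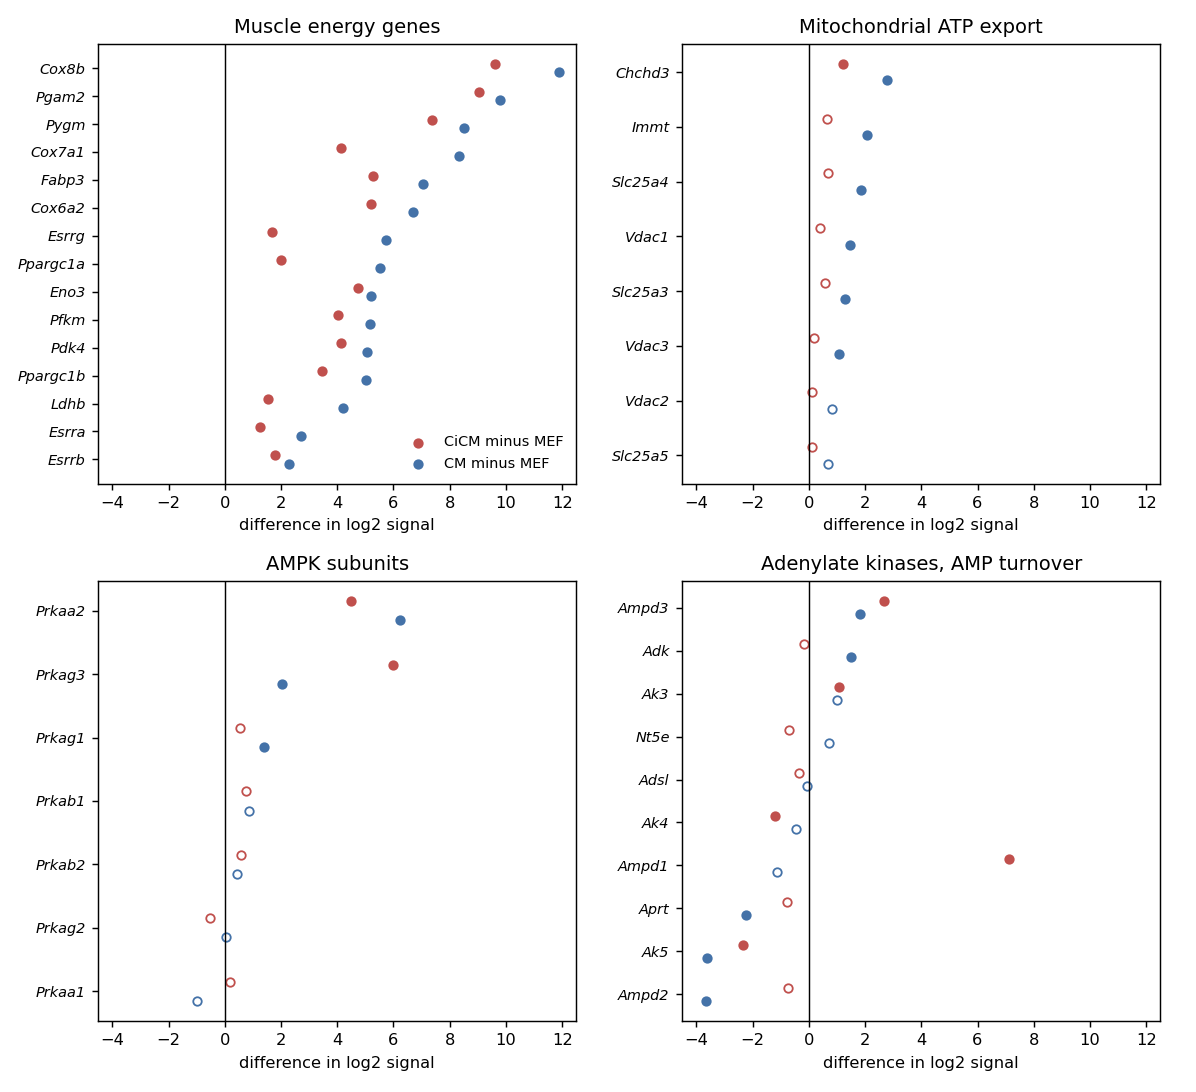
Difference in log2 signal for the tested genes of 4 lists, CiCM minus MEF and CM minus MEF; filled points were called and open points were not, and genes run from the highest to the lowest CM minus MEF difference. All 15 muscle energy genes are called in both comparisons, while 1 of 8 genes of mitochondrial ATP export is called in CiCM and 6 in CM.

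Supply genes for creatine synthesis had few calls in CiCM against MEF, where 11.6% of all genes rose and 12.2% fell. Of 7 tested genes for methyl groups, arginine and related transport, 0 rose in CiCM over MEF by limma and 1 fell. That was Slc7a1, an arginine carrier (-1.18 ± 0.12, SE, limma adjusted p = 1.54e-05). At an unadjusted p under 0.05, 1 was higher and 5 were lower, Slc7a1 among them. The list median was -0.50, beside -0.033 for all genes. The 1 that was higher at the unadjusted p was Slc6a6, the taurine carrier (0.87, limma adjusted p = 0.00371), under the minimum difference. In CM, Mtr, methionine synthase (1.55), and Mat2b, a regulatory subunit of S-adenosylmethionine synthesis (1.00), were higher than in MEF and Ahcy, which clears S-adenosylhomocysteine (-1.76), was lower (median -0.28; 22.1% and 21.8% of all genes). Mat2b lay at the threshold, with 0.99 when 32 was added. Against CM, Ahcy (1.56) was higher in CiCM and Mat2b (-1.63) and Mtr (-2.05) were lower (median -0.35, or 0.23 with levelling on the controls; 16.5% and 19.0% of all genes). With levelling 0 of the 7 were higher in CM than in MEF and 4 lower. Of 5 tested globin and oxygen response genes, Epas1, a hypoxia factor, was the 1 that rose in CiCM over MEF (1.52; 11.6% of all genes), and 0 fell by limma, also at an unadjusted p under 0.05 (median 0.088, or -0.14 with levelling). In CM, cytoglobin, Cygb (5.09, or 3.98 with 32 added), and Epas1 (3.69) were higher than in MEF and Hif1a (-1.50) was lower (median 0.29, or -0.51 with levelling and -0.077 with centring; 22.1% and 21.8% of all genes). Against CM, Hif1a (1.70) was higher in CiCM and Epas1 (-2.17) and Cygb (-5.70, or -4.33 with 32 added) were lower (median -0.59; 16.5% and 19.0% of all genes). Cygb differed by -0.61 ± 0.70 for CiCM minus MEF (SE, limma adjusted p = 0.493).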

How the data were processed

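The authors' deposited table gives log2 signals, 45101 a sample, made with MAS5 (version not given in the sources used here) per the submitters' processing notes; that they are log2 was read from the values. On the linear scale the 2% trimmed mean was 500.003 on all 9 arrays. Scan dates were not used here, and any batch that matches a group cannot be told apart from it. Symbols came from the platform annotation in GEO, some of it old: 34945 had 1 symbol, 932 several, 9160 none, and 64 were controls. Of 18193 genes, 12559 reached the line of 6.58 and were tested in 1 limma fit of all 9 arrays (version 3.58.1, R 4.3.3; variance trend, no covariates, 2-sided), with Benjamini-Hochberg adjustment over all of them. The number of arrays limits the precision. The fit was checked on simulated data. The 9 genes, the gene lists, tests and alternatives were chosen with earlier results of these data known. All 9 genes are named; of each list, up to 2 called genes at either end per comparison, and the 4 genes most like Ckm, Ckb, Ckmt2 and Mb. Uncalled list genes, and called ones outside those ends, were named after their values were seen. Scaling alternatives for the lists were added after seeing the data. Same-numbered replicates of different groups were not paired in the main fit, and the labels do not say whether they share an origin. The figures used matplotlib 3.10.9 (Python 3.11.15).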

Additional observations from a re-analysis of the deposited data

How the results depend on the processing

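Of the differences of the 8 genes under 21 alternatives, 460 kept their sign and their side of the call rule, 23 lost a call, 16 gained one and 5 changed sign. The 5 were CM minus MEF of Ckb, at 0.087 with quantile normalization and above 0 without MEF replicate 2, CM replicate 1 or CM replicate 2 (-0.12 to 0.048 over all fits without 1 array), and CiCM minus CM of Ak1, at 0.067 with levelling on hybridisation controls; none of the 5 was called. Several alternatives cannot change a difference, only its p-value or call: the filters, no variance trend, no minimum difference and the replicate block. Fitting only the 2 groups compared, or leaving out an array of the group not compared, cannot change it either. The 460 therefore include values that were fixed in size. With no minimum difference, 1 gene of the 8 was called lower in CiCM than in MEF and 2 in CM than in MEF. The count lower in CM than in MEF, 0, was 2 with quantile normalization, with centring and with levelling. The count lower in CiCM than in CM, 4, was 2 with quantile normalization and centring and 1 with levelling. Leaving out each array in turn gave 0 to 1 genes lower in CM than in MEF and 2 to 4 lower in CiCM than in CM. Averaging probe sets turned Ckm minus Ckmt2 to -2.85 and Ckm minus Mb to 0.37 for CiCM minus MEF, and Ckm minus Mb to 0.83 for CM minus MEF. With that averaging, CiCM minus MEF was 4.78 for Ckm, 4.40 for Mb and 7.62 for Ckmt2. Ckm and Mb each have a dimmer probe set that enters the mean, and Ckmt2 has only 1 probe set. Among all genes, 1451 were higher in CiCM than MEF and 1536 lower; these counts were 966 and 934 with a constant 4 times the 32 added and 3043 and 3486 with no minimum difference, and 1001 were lower with the filter at the 75th percentile, where fewer genes are tested. With levelling, 1551 were higher and 5483 lower in CM than in MEF, against 2779 and 2736, and 4023 higher and 1377 lower in CiCM than in CM, against 2075 and 2387; with no minimum difference these were 4218, 4572, 4077 and 4012. The replicate number as a block changed no call of the 8 genes. It gave 1444 and 1534 genes for CiCM against MEF, 2774 and 2734 for CM against MEF, and 2063 and 2371 for CiCM against CM. Deviations of same-numbered arrays correlated at -0.016 to 0.067. Such values cannot tell whether same-numbered samples shared an origin, which the labels do not state. Signals under the line of 6.58 limit the MEF levels of Ckm, Ckmt2 and Mb and the group means of Ckmt1.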
